A study of Mus musculus with 4 samples.

Results

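The Hox genes encode homeodomain transcription factors. In the deposited expression table of hair follicle stem cells, 39 of 55401 genes had a symbol made of Hox, a cluster letter from a to d and a paralogue number. The rule that chose them uses the symbol alone. The cells came from follicles of C57BL/6 mice in anagen, when hair grows. Mice of the ND group received a normal diet and mice of the HFD group a high-fat diet for 4 months. Each diet was represented by 2 libraries, called here ND 1, ND 2, HFD 1 and HFD 2. The labels gave no age, genotype, method of cell isolation or source animal, so p-values reflect only how far these 4 libraries spread, and that spread may be technical.

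Mammalian Hox genes lie in 4 clusters that arose by duplication, and genes at matching positions of different clusters are paralogues with the same number. Low-numbered genes lie toward the 3′ end of a cluster and high-numbered genes toward its 5′ end. In the embryo the order along the cluster matches the order of expression from head to tail, so that the set of active genes marks position. Skin retains such a positional code in the adult, mainly described in dermal fibroblasts. Hoxc13 stands apart because it is known as a regulator of hair shaft keratins. Hox proteins bind DNA together with TALE homeodomain partners of the Pbx, Meis and Pknox families. Polycomb group proteins keep Hox clusters silent and trithorax group proteins keep them active. MicroRNAs of the miR-10 and miR-196 families are encoded inside the clusters, and miR-196 is known for cleaving Hoxb8 mRNA.

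The mature miR-196 sequences, from RefSeq on GRCm38.p6, are shown because their complement marked several of the most abundant Hox transcripts. Capitals mark the seed, bases 2 to 8, which both forms share.
mmu-miR-196a-5p: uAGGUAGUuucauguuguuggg
mmu-miR-196b-5p: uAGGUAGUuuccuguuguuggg
MiR-196a-5p is encoded at chr11:96265187-96265208 (+ strand), between Hoxb13 and Hoxb9, and at chr15:102973365-102973386 (+ strand), between Hoxc10 and Hoxc9. MiR-196b-5p is encoded at chr6:52230129-52230150 (- strand), within the span of Hoxa9. Among the 3′ UTRs of 21037 protein-coding genes in GENCODE vM21, a single stretch paired with 21 of the 22 bases of miR-196a-5p, and it lay in Hoxb8 at chr11:96284888-96284909 (+ strand). The next best gene paired at 17 bases, the next best Hox gene at 15, and the median gene at 13. Only Watson-Crick pairs were counted, without gaps. In the Hoxb8 stretch below capitals mark these pairs. The remaining base is A5G, with the base of the full complement first and the position counted from the 5′ end of the miRNA. It sets G opposite U, a G:U wobble pair, which was not counted.
Hoxb8: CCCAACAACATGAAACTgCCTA
The letters ACTACCT, the complement of the seed on the transcript strand, occurred in the 3′ UTR of 9 of 39 Hox genes (23.1%) and of 1283 of 21037 genes (6.10%). The median 3′ UTR of these sets was 966 and 960 bases long. The sites of 3 abundant Hox genes show these letters in capitals, and the Hoxa7 site is the last of 4 along that transcript.
Hoxa7, chr6:52215210-52215231 (- strand): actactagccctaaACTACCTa
Hoxc8, chr15:102992976-102992997 (+ strand): cactcacaactctaACTACCTg
Hoxb7, chr11:96289784-96289805 (+ strand): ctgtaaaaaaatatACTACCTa
A match is a description of letters, and mature miRNAs were not measured here.

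Promoter sequence is shown for a pair of D cluster genes with different levels, on either side of Hoxd9. Hoxd8 was the most abundant D gene, and Hoxd10 had a count of 1 in each of 2 libraries and 0 in the others. The runs are the 250 bases before the RefSeq start on GRCm38.p6, both on the + strand and free of annotated exons, with each CpG in capitals.
Hoxd8, chr2:74704365-74704614: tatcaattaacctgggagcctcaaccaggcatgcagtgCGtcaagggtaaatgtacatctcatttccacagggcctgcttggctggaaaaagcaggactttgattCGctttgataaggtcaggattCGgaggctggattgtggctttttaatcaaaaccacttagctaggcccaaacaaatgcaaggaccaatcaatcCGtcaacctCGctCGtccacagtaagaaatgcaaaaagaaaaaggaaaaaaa
Hoxd10, chr2:74691641-74691890: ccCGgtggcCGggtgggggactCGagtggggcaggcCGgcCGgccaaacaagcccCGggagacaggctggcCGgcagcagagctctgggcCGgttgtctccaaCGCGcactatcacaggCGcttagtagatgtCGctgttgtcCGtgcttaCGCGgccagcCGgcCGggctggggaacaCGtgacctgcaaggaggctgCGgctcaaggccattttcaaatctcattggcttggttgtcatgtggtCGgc
The near-silent Hoxd10 promoter held 20 CpG and that of Hoxd8 held 6. The RefSeq table gave a promoter for 22 of the 39 Hox genes. The median was 12 CpG both for the 9 of them that were expressed in the sense given below and for the 13 that were not, against 6 over all 27025 promoters. The TATA box letters TATAAA, searched on both strands, occurred in 1 of the 9 and in 2 of the 13, and in 12.97% of all promoters.

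Library totals were 9940848 and 9366856 counts for ND 1 and ND 2, and 8734246 and 8590570 for HFD 1 and HFD 2. Hox genes received between 3577 and 5205 counts per library. Libraries of 1 diet differed by more than sampling noise, with chi-square over its degrees of freedom of 14.9 for ND and 6.87 for HFD. All 13 bulge stem cell markers of a list reached a mean of 1 FPKM (counts scaled by exonic length and by the library total), led by the keratins Krt5, Krt14 and Krt15. Of these 13 markers 1 was called by edgeR, beside 1.35% of all genes tested, and 7 had an unadjusted p under 0.05, beside 13.3%. The called marker was Krt14, at 1762 and 2224 FPKM in ND and 3310.2 and 2771 in HFD (log2 fold change 0.70, edgeR adjusted p = 0.0332). That call was lost without ND 1, where 0 genes of the table were called. The 13 dermal fibroblast markers summed to 107 and 123 FPKM in ND and 99.1 and 91.4 in HFD, most of it from Fbln1 and Col6a1, but 8 of its 11 tested members had positive log2 fold changes (HFD over ND, median 0.53) and 0 were called. The fibroblast regulator Twist2 and the dermal papilla marker Corin were at 0 counts in every library. The 8 melanocyte markers summed to 11.1 and 6.66 FPKM in ND and 7.53 and 5.81 in HFD. The 11 immune markers summed to 10.7 and 18.9 in ND and 23.5 and 24.5 in HFD, the 7 endothelial markers to 2.03 and 2.48 in ND and 3.30 and 4.01 in HFD, and the 7 muscle markers to 4.71 and 3.79 in ND and 7.31 and 8.46 in HFD. All 6 tested endothelial and all 4 tested muscle markers had positive values, and 0 were called. Of 6 adipocyte markers 5 were at 0. In these bulk samples fewer cells of a type and less RNA per cell cannot be told apart, and the part of other cell types in the Hox values below was not tested.

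Hox expression in these samples was highest in the middle of the clusters. Of the 39 genes, 20 had a mean of at least 1 FPKM in a diet and are called expressed here. Paralogue positions 4 to 8 held 14 of these 20, and only 1 of the 15 genes at those positions, Hoxd4, fell short. Those positions carried 79.3% of the summed Hox FPKM over the 4 libraries, against 9.25% for positions 1 to 3 and 11.4% for positions 9 to 13. Of the 8 genes at positions 1 to 3, 4 were expressed. Of the 16 genes at positions 9 to 13, only Hoxb9 and Hoxc13 were expressed. The paralogue groups with the largest sums were group 7 (29.2% of the total), group 8 (22.99%) and group 6 (14.9%).

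**Figure D1:**
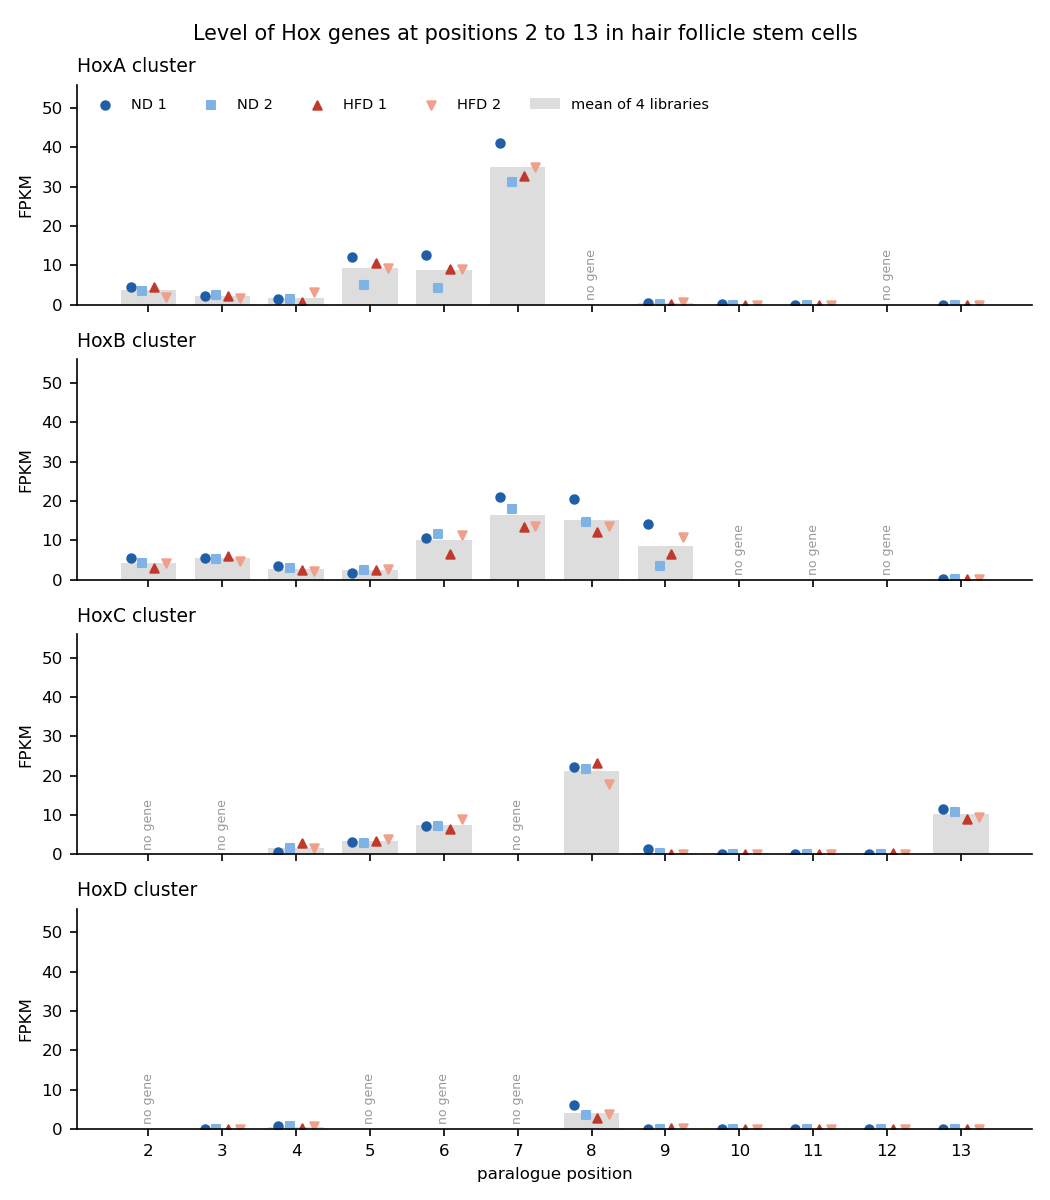
Level of Hox genes in FPKM (vertical axis) by paralogue position from 2 to 13 (horizontal axis), in 1 panel per cluster. Points are the 4 libraries and bars their mean, and the tallest bar is Hoxa7 at 35.0 FPKM.

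The clusters contributed unequally. The B cluster summed to 82.2 and 62.5 FPKM in ND and 52.4 and 63.3 in HFD, with 8 of its 10 genes expressed. The A cluster summed to 76.3 and 48.7 FPKM in ND and 60.7 and 62.5 in HFD, with 6 of 11 genes expressed and 56.5% of the sum from Hoxa7. The A and B sums overlapped across libraries, so their order is not settled. The C cluster summed to 46.2 and 44.2 FPKM in ND and 45.4 and 41.8 in HFD, with 5 of 9 genes expressed, and lay below both in each library. The D cluster was the lowest in all 4 libraries, at 6.88 and 4.71 FPKM in ND and 3.44 and 5.09 in HFD. Its only expressed gene, Hoxd8, supplied 82.6% of that.

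Hoxa7 was the most abundant Hox transcript. This gene, at chr6:52214491-52221854 (- strand) on GRCm38, measured 41.2 FPKM in ND 1, 31.1 in ND 2, 32.7 in HFD 1 and 35.1 in HFD 2. Its mean stood at percentile 95.8 of all genes with a count. Hoxc8, at chr15:102990607-102994111 (+ strand), measured 22.3, 21.6, 23.3 and 17.8 FPKM in the same order of libraries. Every library of Hoxa7 was above every library of Hoxc8. Both belong to the trunk-level genes in the middle of their clusters.

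Hoxb7 and Hoxb8 are adjacent genes of the B cluster with the next highest levels. Hoxb7, at chr11:96286623-96290162 (+ strand), measured 21.1 and 17.98 FPKM in ND and 13.3 and 13.7 in HFD. Hoxb8, at chr11:96281905-96285315 (+ strand), the gene with the near-complete miR-196a complement, measured 20.4 and 14.6 FPKM in ND and 12.1 and 13.7 in HFD. The ranges of Hoxc8, Hoxb7 and Hoxb8 over the 4 libraries overlapped. Within each library, however, Hoxc8 was above Hoxb7 and Hoxb7 above Hoxb8. In HFD 2 the gap between Hoxb7 and Hoxb8 was small, at 13.72 and 13.65 FPKM. These differences between genes were not tested. All libraries of Hoxb8 lay above all of the next gene, Hoxc13.

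Hoxc13 was the exception at the 5′ end. It lies at chr15:102921103-102928814 (+ strand) and measured 11.5 and 10.8 FPKM in ND and 9.03 and 9.55 in HFD, or between 0.3884 and 0.5365 times the Hoxc8 level of the same library. Between the 2 genes lie 61792 bases that hold Hoxc12, Hoxc11, Hoxc10 and Hoxc9. Of these, Hoxc10 and Hoxc11 were at 0 counts in all libraries and Hoxc12 had 3 counts in all. Hoxc9 had 33 counts in ND 1 and 5, 2 and 1 in ND 2, HFD 1 and HFD 2, so ND 1 alone supplied most of its 41 counts. Hoxc13 was thus separated from the next expressed gene of its cluster by 4 genes with means below 1 FPKM in both diets.

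The genes of the differentiating hair shaft, where Hoxc13 is known to act, were nearly undetected. Of the 12 measured members of that list, 5 hair keratins were at 0 counts in every library, and Foxn1, a regulator of hair keratinocyte differentiation, alone passed the count filter. Foxn1 measured 0.97 and 0.37 FPKM in ND and 2.32 and 2.79 in HFD, a log2 difference of 2.01 ± 0.55 (SE, n = 2 libraries per diet) with an edgeR adjusted p of 0.117. The list summed to between 0.79 and 3.30 FPKM per library, below the level of Hoxc13 alone.

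Hoxb9 was the other 5′ gene above 1 FPKM, and its libraries ranged widely. It lies at chr11:96271457-96276595 (+ strand), next to Hoxb8, and measured 14.03 FPKM in ND 1, 3.36 in ND 2, 6.45 in HFD 1 and 10.8 in HFD 2. The ND libraries enclosed both HFD libraries. Beyond it, across a gap of 74009 bases, Hoxb13 had between 1 and 3 counts per library.

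In the A cluster the fall at the 5′ side was steep. Hoxa7 and Hoxa9 are separated by 1245 bases, and in each library the FPKM of Hoxa7 was a multiple of that of Hoxa9, by 79.2 in ND 1, 183 in ND 2, 327 in HFD 1 and 42.2 in HFD 2. Hoxa9 itself had 29, 9, 5 and 40 counts. The ratio therefore rests on few counts. Further 5′, Hoxa10 had 6 counts in all, Hoxa11 had 2 and Hoxa13 had 0.

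**Figure D2:**
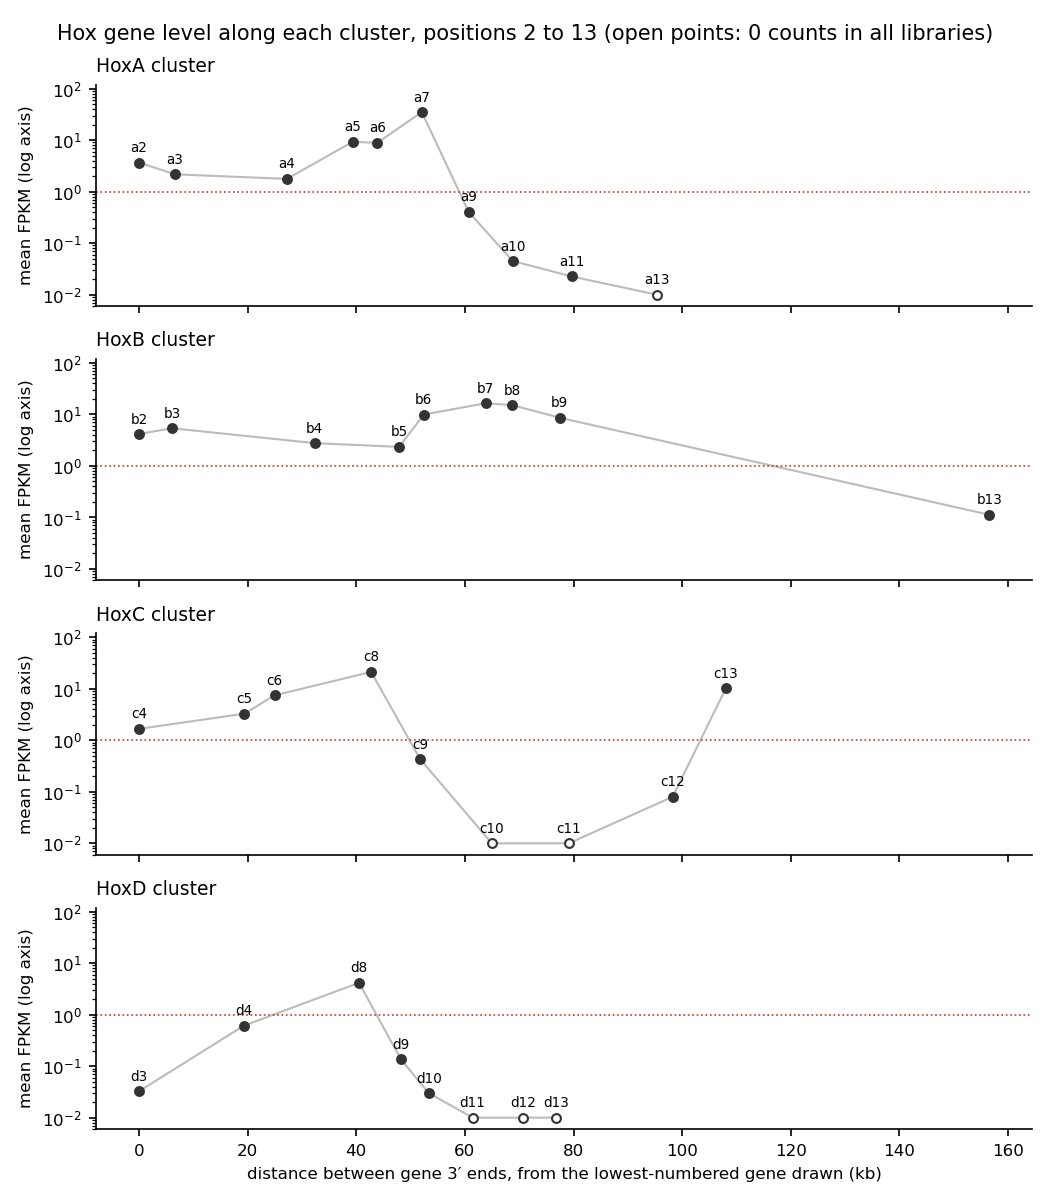
Mean FPKM of the 4 libraries (vertical log axis) against distance in kilobases between gene 3′ ends, from the lowest-numbered gene drawn in each cluster, at positions 2 to 13 (horizontal axis), with the dotted line at 1 FPKM. Open points are the 6 genes of these positions at 0 counts, drawn at the floor of the axis, and Hoxc13 is the only gene at position 13 above the line.

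The intermediate genes of the A cluster were Hoxa5 and Hoxa6. Hoxa5, at chr6:52201754-52204587 (- strand), measured 12.1 and 4.95 FPKM in ND and 10.7 and 9.24 in HFD. Hoxa6, at chr6:52206288-52208722 (- strand), measured 12.8 and 4.28 FPKM in ND and 9.17 and 9.19 in HFD. In both genes ND 1 was the highest and ND 2 the lowest library, as it was for Hoxb9. The paralogues of Hoxa6 overlapped it in level. Hoxb6 measured 10.6 and 11.6 FPKM in ND and 6.47 and 11.2 in HFD, and Hoxc6 measured 7.19 and 7.18 in ND and 6.42 and 9.04 in HFD. From Hoxc13 down to Hoxc6 the ranges of neighbours overlapped, and all libraries of Hoxc6 then lay above all of Hoxb3.

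The remaining expressed genes lay below 7 FPKM in every library. Hoxb3 measured 5.44 and 5.32 FPKM in ND and 6.11 and 4.68 in HFD. Hoxb2 measured 5.36 and 4.32 in ND and 2.92 and 4.10 in HFD, and the diets did not overlap. Hoxd8, at chr2:74704615-74707933 (+ strand), measured 6.20 and 3.62 in ND and 2.84 and 3.95 in HFD, and the diets overlapped. Hoxb2 and Hoxb3 are hindbrain-level genes in the embryo, and every library of both lay below every library of Hoxa7, Hoxb7, Hoxb8 and Hoxc8.

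Hoxa2 measured 4.59 and 3.43 FPKM in ND and 4.52 and 2.10 in HFD. Hoxa3 measured 2.24 and 2.47 in ND and 2.23 and 1.72 in HFD. Hoxb4 measured 3.45 and 2.95 in ND and 2.41 and 2.27 in HFD, so both HFD libraries were below both ND libraries. Hoxb5 showed the opposite order, with 1.62 and 2.41 FPKM in ND and 2.55 and 2.80 in HFD. Hoxc5 likewise measured 3.06 and 2.80 in ND and 3.48 and 3.81 in HFD. Hoxa4 measured 1.58 and 1.54 in ND and 0.65 and 3.29 in HFD, its HFD libraries lying on either side of ND. Hoxc4, the lowest of the 20, measured 0.59 and 1.58 in ND and 2.90 and 1.59 in HFD. These genes overlapped their neighbours in level throughout.

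The other 19 genes had means below 1 FPKM in both diets. Those at 0 counts in all 4 libraries were Hoxa13, Hoxb1, Hoxc10, Hoxc11, Hoxd11, Hoxd12 and Hoxd13. A count of 0 allows up to 3 counts, which for these genes was between 0.0716 and 0.183 FPKM per library and covers counting error only. A further 9 genes had between 2 and 41 counts in all and did not pass the filter on low counts. The last 3 genes passed the filter below the limit of 1 FPKM in either diet, among them Hoxa9 and Hoxd4 with means over the 4 libraries of 0.41 and 0.61 FPKM. Hoxd9 had 0 counts in both ND libraries and 4 and 6 in HFD, which is too few for a statement on diet.

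Some levels are uncertain because exons overlap. In GENCODE vM21, whose coordinates matched the table for all 39 Hox genes, 16 of them share exonic bases with another gene, and 10 share over 10%. Hoxb3 shares 52.9% and Hoxb2 27.3% with the antisense gene Hoxb3os, which had 11 to 22 counts per library. Hoxa7 shares 20.4% with antisense Hoxaas3, which had 1 to 10 counts per library. Hoxa3 (27.1%), Hoxa4 (15.998%), Hoxa2 (15.04%) and Hoxd4 (52.3%) also overlap neighbours, and Hoxc5 and Hoxc10 share 166 bases. Whether counting used strand is not given in the sources used here, so sense and antisense reads cannot be told apart. Hoxb7, Hoxb8, Hoxb9, Hoxc8, Hoxc13 and Hoxd8 share no exonic bases with another gene.

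Next, the high-fat diet was compared with the normal diet. None of the 23 Hox genes that passed the filter was called higher or lower by edgeR's quasi-likelihood test at a Benjamini-Hochberg adjusted p under 0.05. Over all 14479 genes tested, 1.12% were called higher and 0.228% lower, or 1.35% in either direction. No Hox gene had an unadjusted p under 0.05 in this edgeR fit, against 13.3% of all genes. DESeq2 also called 0 Hox genes and had 0 at an unadjusted p under 0.05. Limma on log2(FPKM + 1) called 0 and had 1 at that unadjusted level, Hoxb7. EdgeR had 1 at that level with library totals unscaled and 2 with no filter beyond 1 count, and called 0 in both. Fits that leave out 1 library are not part of these counts. In the main edgeR fit, with TMM scaling and the filter, the smallest adjusted p of a Hox gene was 0.405.

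The Hox genes were centred near no difference. Of the 23, 13 had a negative log2 fold change (HFD over ND) and 10 a positive one, with a median of -0.01 beside 0.00 over all genes tested. The values ran from -0.45 for Hoxb7 to 1.13 for Hoxc4. In 8 of 23 genes (34.8%) the libraries of the diets did not overlap in CPM (counts scaled by the library total and its TMM factor), against 44.6% of all genes tested. Hoxb2, Hoxb4, Hoxb7, Hoxb8 and Hoxc13 were the 5 that were lower in both HFD libraries, and Hoxb5, Hoxc4 and Hoxc5 the 3 that were higher. For Hoxb2 the diets barely separated, at 14.76 CPM in ND 2 and 14.71 in HFD 2.

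**Figure D3:**
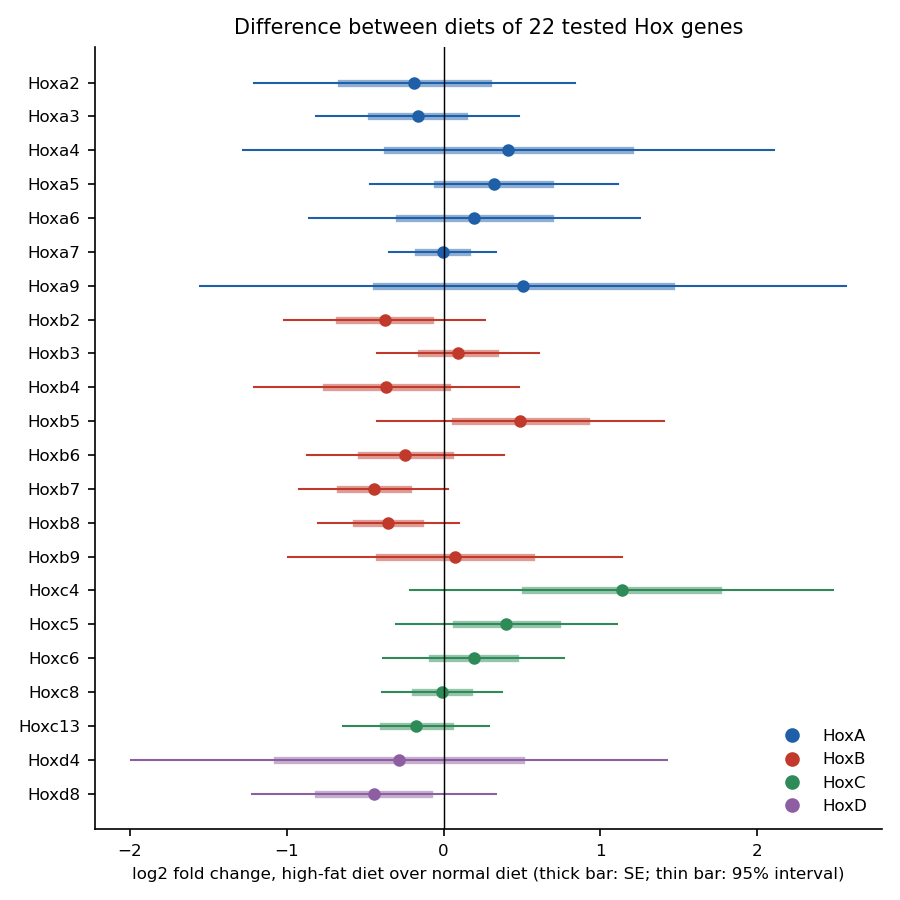
Log2 fold change of HFD over ND (horizontal axis) for 22 of the 23 tested Hox genes, coloured by cluster. Points are edgeR estimates, thick bars the SE and thin bars the 95% interval, and each interval includes 0.

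Hoxb7 had the smallest p-value of the 23 Hox genes, Hoxc4 and Hoxb8 the next, and none of them passed. Hoxb7 was at 0.734 times its ND level, a log2 fold change of -0.45 ± 0.22 (SE, n = 2 libraries per diet, edgeR adjusted p = 0.405) with a 95% interval from -0.92 to 0.03. Hoxb8 was at 0.783 times its ND level, a log2 fold change of -0.35 ± 0.20 (SE, edgeR adjusted p = 0.504). The Hoxb8 value was -0.10 without ND 1 and -0.57 without ND 2. Hoxc13 was at 0.885 times its ND level, with a 95% interval from 0.640 to 1.22.

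The 2 most abundant genes had the narrowest intervals of the tested Hox genes, and these rest on 2 libraries per diet. Hoxa7 had a log2 fold change of -0.01 ± 0.16 (SE, edgeR adjusted p = 0.994), and its 95% interval ran from 0.785 to 1.26 times the ND level. Hoxc8 had -0.01 ± 0.17 (SE, edgeR adjusted p = 0.989), with an interval from 0.762 to 1.29 times. With upper-quartile scaling both signs turned, to 0.0205 for Hoxa7 and 0.0151 for Hoxc8. The C cluster sum varied little, at 45.2 ± 1.39 FPKM in ND and 43.6 ± 2.51 in HFD (SD, n = 2 libraries each).

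The widest differences rested on few counts. Hoxc4 had 15 and 38 counts in ND and 65 and 35 in HFD, and a log2 fold change of 1.13 ± 0.62 (SE, edgeR adjusted p = 0.466). Its ND 2 and HFD 2 libraries were nearly level, and the value was 0.59 without ND 1, 2.02 without ND 2 and 0.62 without HFD 1. Hoxa9 had a log2 fold change of 0.51 ± 0.94 (SE), the largest error of the 23 genes. At this depth a change of the size estimated for Hoxc4 was not resolved for genes with so few counts.

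Single libraries decided the direction for several genes. Hoxb9 had a log2 fold change of 0.07 ± 0.49 (SE, edgeR adjusted p = 0.978), which became 1.43 without ND 1 and -0.61 without ND 2. For Hoxa5 the value was 0.32 and became 1.09 without ND 1 and -0.18 without ND 2. For Hoxa6 it was 0.19 and became 1.18 without ND 1 and -0.38 without ND 2. None of these was called in those fits.

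**Figure D4:**
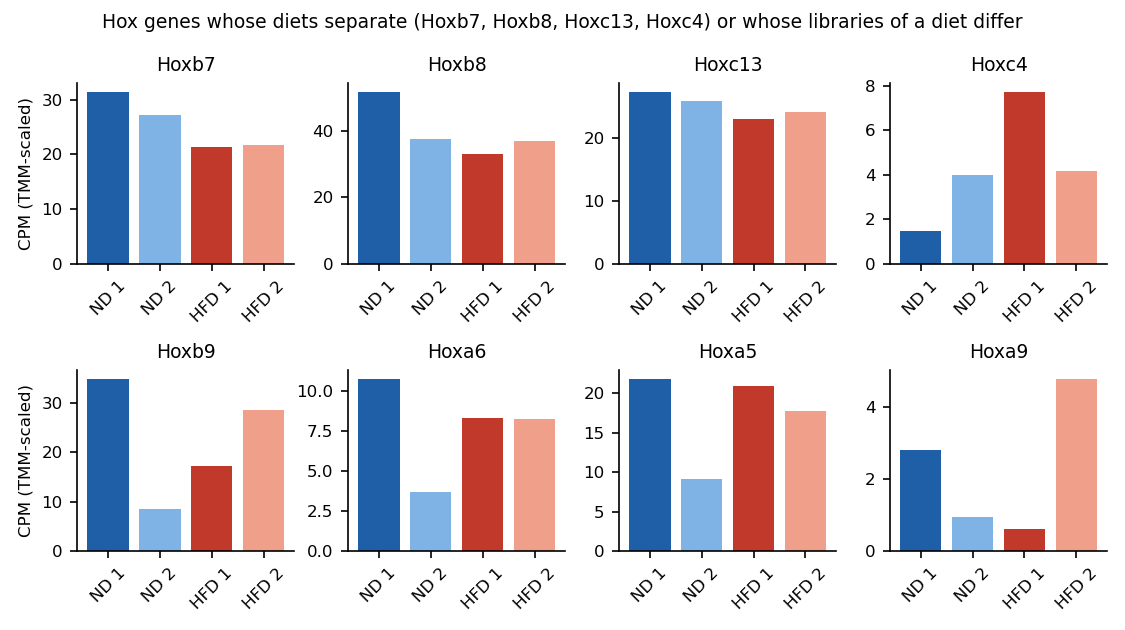
CPM scaled by TMM (vertical axes, each from 0) in the 4 libraries for 8 Hox genes. In the upper row both HFD bars of Hoxb7, Hoxb8 and Hoxc13 lie below both ND bars, and in the lower row ND 1 and ND 2 of Hoxb9 differ by a factor of 4.11.

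Libraries of 1 diet differed in many Hox genes. The median fold between the libraries of a diet was 1.22 over the 23 Hox genes and 1.24 over all genes tested in ND, and 1.32 and 1.18 in HFD. ND 1 was the highest of the 4 libraries in 11 of the 23 tested Hox genes, against 28.5% of all genes tested, and ND 2 was the highest in 1. HFD 1 was the lowest in 11 of 23, against 24.1% of all genes. The CPM of ND 1 over ND 2 was 4.11 for Hoxb9, 2.94 for Hoxa6 and 2.40 for Hoxa5, and 1.30 for Hoxa7. In each diet 8 of 23 Hox genes differed by over 1.5-fold between its libraries, beside 26.9% of all genes in ND and 20.7% in HFD. The summed fibroblast markers were lower in ND 1 than in ND 2, at 107 and 123 FPKM, and the melanocyte markers higher, at 11.1 and 6.66 FPKM. The part of these in the Hox values was not tested.

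By cluster, the log2 ratio of the summed FPKM of HFD to ND was -0.02 for A, -0.32 for B, -0.05 for C and -0.44 for D. These are descriptions of sums with no test. In the B cluster 5 of 8 tested genes were negative, with a median of -0.30, and in the D cluster both were. With FPKM rescaled by TMM factors the B and D ratios were -0.24 and -0.36, and those of A and C turned to 0.07 and 0.04. Without ND 1 the A, B and D ratios were 0.34, -0.11 and -0.14, and without ND 2 they were -0.31, -0.51 and -0.69. Without HFD 2 the D ratio was -0.75.

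Many noncoding and microRNA genes inside the clusters were at 0 counts. The spans of the 4 clusters hold 46 other genes of the table, of which 28 were at 0 counts, 8 reached a mean of 1 FPKM over the 4 libraries, 8 passed the filter and 0 were called (edgeR, smallest unadjusted p 0.0453). Hotair and Hottip, long noncoding RNAs of the C and A clusters known for effects on chromatin, were at 0, as were Mir10b, Mir196a-2, Mir196b and Mir615. These microRNA rows are precursor genes of 68 to 92 bases. Mir196b shares its 85 bases with exons of Hoxa9 on the same strand. A count of 0 on such rows does not show that the microRNA was absent. Hotairm1, a noncoding RNA of the A cluster, had 7 and 21 counts in ND and 14 and 29 in HFD. Mir196a-1, between Hoxb13 and Hoxb9, had 14 and 2 counts in ND and 7 and 5 in HFD, on a row for a short precursor gene. Mir10a, upstream of Hoxb4, had 0 counts in both ND libraries and 9 and 2 in HFD. The gene model Gm11539 of the B cluster measured 11.2 and 12.1 FPKM in ND and 11.7 and 8.36 in HFD. Gm53, a gene model in the interval of Mir196a-1, measured 5.16 and 3.62 FPKM in ND and 5.01 and 7.81 in HFD. Both gene models were named after their values were seen. Of the 14 measured genes listed as flanking the clusters, 9 passed the filter and 0 were called. Evx1, the homeobox gene at the 5′ edge of the A cluster, was at 0 counts, and Evx2, at the edge of the D cluster, had 2.

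Among the TALE partners, 5 reached 1 FPKM, including Pbx2, Pbx3, Meis1 and Pknox1. Pbx2, a cofactor that binds DNA together with Hox proteins, measured 8.98 and 10.6 FPKM in ND and 8.49 and 7.87 in HFD. Of the 9 TALE genes 7 were tested and 0 were called, with 5 negative values and a median of -0.14. Meis2, below 0.4 FPKM in every library, had 24 and 10 counts in ND and 34 and 35 in HFD.

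All 34 listed Polycomb genes were tested, and 2 were called, both lower in HFD. Over all genes tested 0.228% were called lower and 1.35% in either direction. In edgeR 8 of the 34 had an unadjusted p under 0.05, beside 13.3% of all genes. Bmi1, a core subunit of Polycomb repressive complex 1 known for repressing Hox genes, measured 16.8 and 17.3 FPKM in ND and 8.79 and 9.61 in HFD. It fell by 0.80 ± 0.16 on the log2 scale (SE, n = 2 libraries per diet, edgeR adjusted p = 0.0396). Rbbp7, a histone-binding subunit of Polycomb repressive complex 2 and of other chromatin complexes, measured 92.7 and 87.2 FPKM in ND and 55.9 and 58.6 in HFD. It fell by 0.57 ± 0.12 on the log2 scale (SE, edgeR adjusted p = 0.0480). Of the 34 genes 25 had negative values, with a median of -0.27, beside 49.9% negative and 0.00 over all genes. Neither call held with limma or when any 1 of the 4 libraries was left out (adjusted p from 0.174 to 0.464 for Bmi1 and 0.165 to 0.464 for Rbbp7), and with upper-quartile scaling the adjusted p of Rbbp7 was 0.0549. In those fits without 1 library the values stayed between -0.86 and -0.75 for Bmi1 and between -0.60 and -0.53 for Rbbp7, and with DESeq2 the adjusted p was 0.00632 and 0.00219.

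Other Polycomb genes did not pass. Suz12, a core subunit of repressive complex 2, measured 25.4 and 21.6 FPKM in ND and 15.9 and 17.9 in HFD (edgeR adjusted p = 0.263). Cbx6, a chromodomain protein of repressive complex 1, measured 10.3 and 9.88 in ND and 6.15 and 6.97 in HFD (edgeR adjusted p = 0.107). Rbbp4, the close relative of Rbbp7, measured 25.95 and 22.98 in ND and 17.9 and 16.2 in HFD (edgeR adjusted p = 0.164). In each of these genes both HFD libraries lay below both ND libraries. Over all genes tested the diets did not overlap in CPM in 44.6%, in either direction. Other members of the list had both HFD libraries above both ND libraries, and 9 of the 34 had positive log2 fold changes.

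The trithorax list, of genes known to keep Hox clusters active, gave 0 calls in 20 tested genes, with 10 negative and 10 positive values and a median of 0.00. Psip1, a chromatin tether of the Kmt2a complex, measured 35.0 and 26.1 FPKM in ND and 22.3 and 21.5 in HFD (edgeR adjusted p = 0.287). Aff1, a subunit of the super elongation complex, measured 15.2 and 17.2 in ND and 19.0 in both HFD libraries (edgeR adjusted p = 0.314). Among 18 genes of retinoic acid synthesis, breakdown and reception, 13 were tested and 0 called, with a median of 0.26. Retinoic acid is a known inducer of 3′ Hox genes. The receptors Rxra and Rarg were its most abundant members, with Rxra at 54.2 and 58.8 FPKM in ND and 52.3 and 46.2 in HFD, and Rarg at 46.3 and 52.1 in ND and 44.9 and 47.8 in HFD. Of the 6 Cdx and other ParaHox genes, which include known activators of Hox clusters, 0 passed the filter and 4 were at 0 counts.

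**Figure D5:**
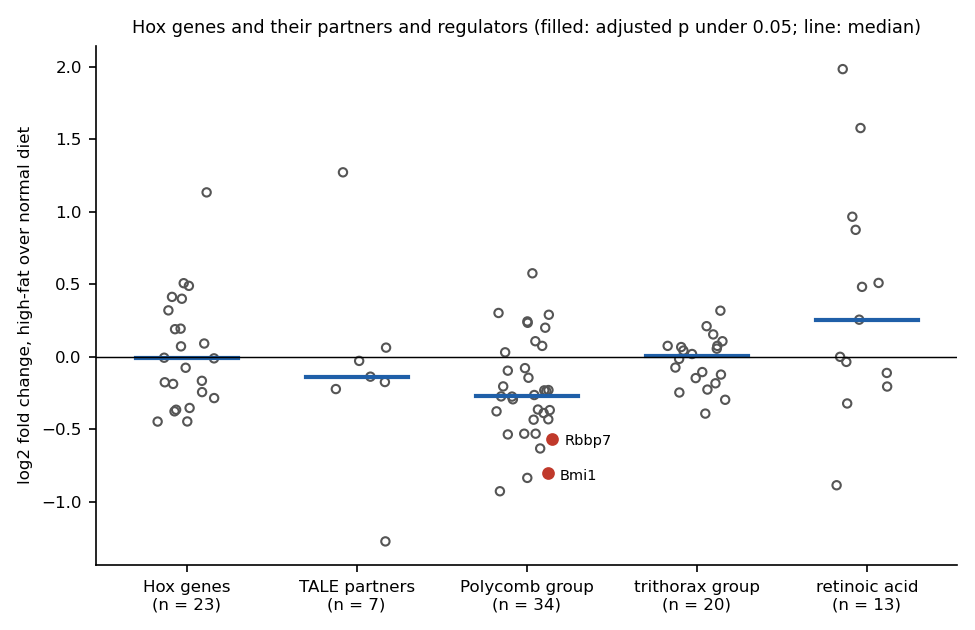
Log2 fold change of HFD over ND (vertical axis) of each tested gene in 5 lists (horizontal axis, with the number tested), with lines at the list medians. Filled points passed an adjusted p under 0.05 and are Bmi1 and Rbbp7, both below 0 in the Polycomb list, whose median was -0.27.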

How the data were processed

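RNA-seq of hair follicle stem cells was compared between 2 libraries per diet, grouped by the labels. HISAT2 2.0.1, cutadapt 1.9.1 and bcl2fastq 2.17.1.14 were used, per the submitters' processing notes. No source used here gives the counting program, strand handling, annotation or build. The authors deposited whole-number counts and FPKM values per gene and library. FPKM recomputed from the deposited counts, totals and exonic lengths agreed within 0.00500, so they carry no further scaling. Of the table's genes 55141 occur in GENCODE vM21 and 99.4% of those have the same coordinates on GRCm38, which is used for positions.

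Counts of all genes were tested in R 4.3.3 with edgeR 4.0.16 (quasi-likelihood, TMM, a filter by diet of about 10 counts in 2 libraries and 15 in all, Benjamini-Hochberg adjustment over 14479 genes, called under 0.05). A gene could pass through 1 diet alone. The common biological coefficient of variation was 20.3%. SE is the log2 fold change over the square root of F, and SDs are over 2 libraries. Levels between genes were compared in FPKM only. The fits were tested on simulated data. DESeq2 1.42.0, limma 3.58.1, other scalings and filters, a fit with a replicate block and fits without each library were tried. Sequences came from RefSeq tables, and 3′ UTRs and overlaps were computed in Python 3.11.15.

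The members and lists (bulge, hair keratin, fibroblast, melanocyte, immune, endothelial, muscle, adipocyte, TALE, Polycomb, trithorax, Cdx, retinoic acid, cluster noncoding, cluster flanks) were chosen with earlier results of these data known. Each expressed Hox gene is given by library. From each list the called genes and up to 3 others with the smallest p or highest level are named, and some are left out for brevity. The results of a few genes are not reported here. Hoxa9, Hoxc9, Hoxd9, Gm53 and Gm11539 were named after their values were seen.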

Additional observations from a re-analysis of the deposited data

How the results depend on the processing

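No Hox gene was called in any of the 13 alternative fits, and of 285 alternative log2 fold changes of 22 Hox genes 258 kept their direction. Calls over all genes were 162 higher and 33 lower, and became 408 and 225 with no filter beyond 1 count, 274 and 115 with DESeq2, 2 and 0 with limma at either pseudocount (1 and 0.1), and 308 and 111 with the replicate block. Lower calls became 65 with library totals unscaled and 67 with a CPM of at least 1 in all libraries. Leaving out 1 library gave 0 to 81 higher and 0 to 2 lower calls, where the spread of a lone library was taken from the other diet. Differences between replicate numbers correlated at -0.01 across the diets, so the numbers were not taken to pair libraries. Direction turned for Hoxc8 to 0.0151 with upper-quartile scaling and 0.001 with the stricter filter, for Hoxa7 to 0.0205 and 0.0066 in these and 0.0053 with the replicate block, for Hoxb9 to -0.0181 with library totals, for Hoxb3 to -0.0056 and -0.0083 with limma at pseudocounts 1 and 0.1, and for Hoxa4 to -0.058 with limma at 0.1. The cause was not tested. Without 1 library in turn, log2 fold changes ran from -0.85 to 0.27 for Hoxa2, -0.37 to 0.0147 for Hoxa3, -1.17 to 1.15 for Hoxa4, -0.18 to 1.09 for Hoxa5, -0.38 to 1.18 for Hoxa6, -0.19 to 0.20 for Hoxa7, -1.64 to 1.4999 for Hoxa9, -0.12 to 0.28 for Hoxb3, -0.68 to 0.0926 for Hoxb6, -0.61 to 1.43 for Hoxb9, -0.0674 to 0.41 for Hoxc6, -0.23 to 0.18 for Hoxc8 and -0.72 to 0.0483 for Hoxd4. Between 18 and 23 Hox genes were expressed under other limits, units or libraries. With 2 libraries per diet and few counts, differences of the lowest genes were not resolved.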
